A study of Sus scrofa with 6 samples.

Results

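Introns are the stretches of a gene that are transcribed and then spliced out of the RNA. DNA methylation in mammals is placed mostly on the cytosine of CpG dinucleotides, and gene bodies of active genes are usually methylated, whereas CpG-dense promoters usually are not. Intronic DNA also holds enhancers, in which low methylation often goes with activity, and many repeated elements, which are usually methylated. In adipose tissue, methylation at such sites is known to change as preadipocytes become fat cells. MeDIP-seq pulls down methylated DNA fragments with an antibody against 5-methylcytosine and sequences them, so that read depth over a region follows both the methylation of its CpGs and their number.

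The CpG-rich intron DMRs (differentially methylated regions) described here were higher in the backfat of Landrace pigs (LBF) than in that of Rongchang pigs (RBF). They were chosen from the deposited table as unique DMRs that were annotated to an intron and to no promoter, exon or 2 kb downstream region, that held at least 10 CpGs, and whose mean normalized read depth was higher in LBF than in RBF. This rule found 911 of the 14163 DMRs, and 911 of the 951 CpG-rich DMRs that lay in introns alone. The other 40 CpG-rich intron DMRs were lower in LBF. Both the CpG number and the direction between the breeds were thus fixed by the rule, and all breed differences of the 911 members are given as a description without a test.

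LBF was backfat of 3 female Landrace pigs, a lean breed, and RBF was backfat of 3 female Rongchang pigs, a Chinese breed with much fat. All 6 pigs shared 1 environment and were 210 days old at slaughter, backfat was taken over the ribs, and each pig gave 1 library. The labels name no transgene and no treatment, and each breed was represented by 3 animals only. According to the paper, food was withheld from all pigs before slaughter. Breed, growth and fatness cannot be told apart in this design. Backfat is a mixture of cells, in which a different share of a cell type and a different methylation per cell cannot be told apart, and the table holds no expression values by which the labelled tissue could be checked.

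Depth differed between the breeds over the whole table. The median depth over all 14163 DMRs was 34.1, 35.2 and 35.4 in the LBF libraries, against 13.9, 14.4 and 9.40 in the RBF libraries, so that RBF replicate 3 was the lowest. Because the table lists only regions that the authors had called on these 6 libraries, 100% of the 14163 DMRs were without overlap between the breeds, and 99.5% passed limma at an adjusted p of 0.05 (84.5% as higher in LBF). The table holds no input library, so DNA copy number and methylation cannot be told apart at any DMR. When the libraries were rescaled to equal medians over all DMRs, the median log2 fold change of all DMRs shifted by -1.41, and 10.9% of all DMRs then passed as higher in LBF and 17% as lower.

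The 911 members exhibited a high depth in every Landrace pig and a low, uneven depth in the Rongchang pigs. Their median normalized read depth was 44.4, 46.4 and 45.8 in LBF replicates 1 to 3, against 12.2, 12.5 and 6.10 in RBF replicates 1 to 3. The LBF libraries were nearly level, and RBF replicate 3 lay below the other 2 Rongchang pigs. The mean depth of single members ranged over 10.9 to 350 in LBF and over 0.430 to 213 in RBF. The highest LBF mean belonged to a member with no gene symbol at chr2:72638686-72639199 (Sscrofa10.2, as all coordinates here), a feature chosen after its values were seen, with depths of 329, 353 and 367 in LBF, against 197, 193 and 249 in RBF.

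**Figure D1:**
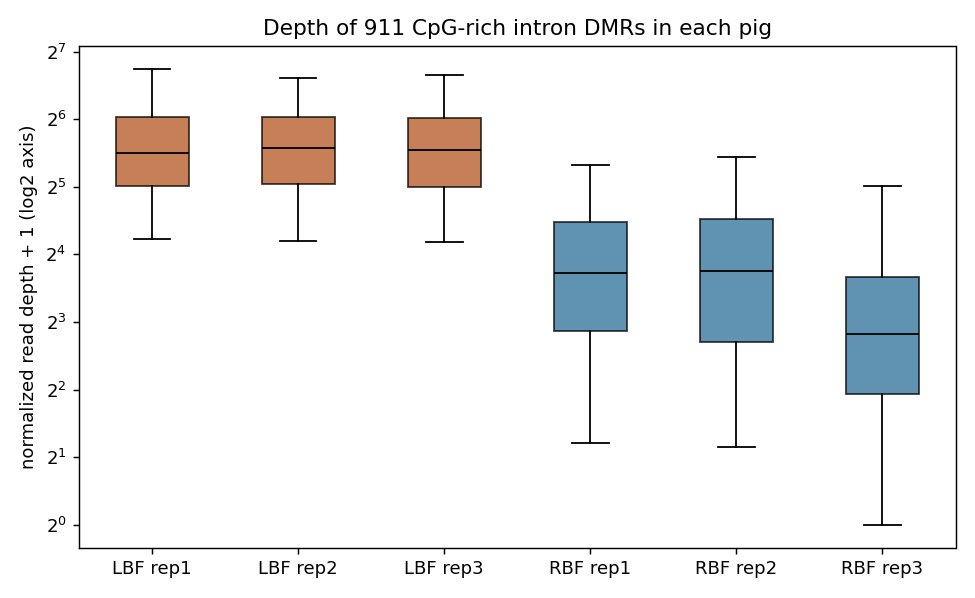
Normalized read depth plus 1 (log2 axis) of the 911 CpG-rich intron DMRs in each of the 3 LBF and 3 RBF libraries. Each box spans the quartiles with the median as a line, and the whiskers span the 5th to the 95th percentile over members. The LBF medians lie between 44.4 and 46.4, and the RBF medians between 6.10 and 12.5, with replicate 3 lowest.

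On the scale of log2(depth + 1), the median difference between the breed means was 2.10, with quartiles of 1.64 and 2.72 and a range of 0.41 to 5.16. Without RBF replicate 3 the median was 1.75. By comparison, the median was 1.64 over the 2419 CpG-poor intron DMRs (5 to 9 CpGs) that were higher in LBF, and 2.20 over the 2361 CpG-rich intergenic DMRs that were higher in LBF. All 911 members were without overlap between the breeds, as were 100% of all DMRs, and 910 passed limma beside a background of 99.5%. The exception was the member with the smallest fold change, in SLC46A2. Nothing can be read from these counts about the members, since the rule used the same contrast.

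With equal library medians, 758 of the 911 members remained above 0 and 153 turned negative, and their median log2 fold change was 0.69. On that scale 185 members (20.3%) passed limma as higher in LBF beside a background of 10.9%, and 9 passed as lower. These counts come from the contrast that chose the members, while the background includes DMRs lower in LBF, so nothing is read from the difference. The corresponding share that passed as higher was 6.95% of the CpG-poor intron DMRs and 22.2% of the CpG-rich intergenic DMRs that were higher in LBF by mean depth. By mean depth, the measure of the rule, 746 of the 911 remained higher in LBF on that scale. The direction of the others therefore depends on how the libraries are scaled, and the folds and directions named below are on the authors' scaling unless stated.

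The direction of intron DMRs went with their CpG number. Among intron DMRs of 5 CpGs, 72.6% were higher in LBF, and this share was 82.1% at 6 to 7 CpGs, 88.5% at 8 to 9, 94.8% at 10 to 11 and 96.1% at 12 to 13 CpGs. It was 95.7% at 14 to 15 and at 16 to 18 CpGs, and 98.7% at 19 to 25 CpGs, and all 24 intron DMRs of 26 to 71 CpGs were higher in LBF. With equal library medians, the share above 0 was 41.1% at 5 CpGs, reached 88.7% at 14 to 15 CpGs and was lower again, at 70.8%, in the class of 26 to 71 CpGs. The limit of 10 CpGs thus fell within a gradual course and not at a step. At the limit, the 207 members with 10 CpGs had a median log2 fold change of 1.96, and the 260 intron DMRs with 9 CpGs that were higher in LBF had 1.78. CpG-rich refers here to a count and not to a density. The members had a median length of 218 bp, against 125 bp in the CpG-poor intron DMRs higher in LBF. Their median density was 5.73 CpGs per 100 bp, against 5.17 in those and 5.85 in the CpG-rich intergenic DMRs higher in LBF.

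**Figure D2:**
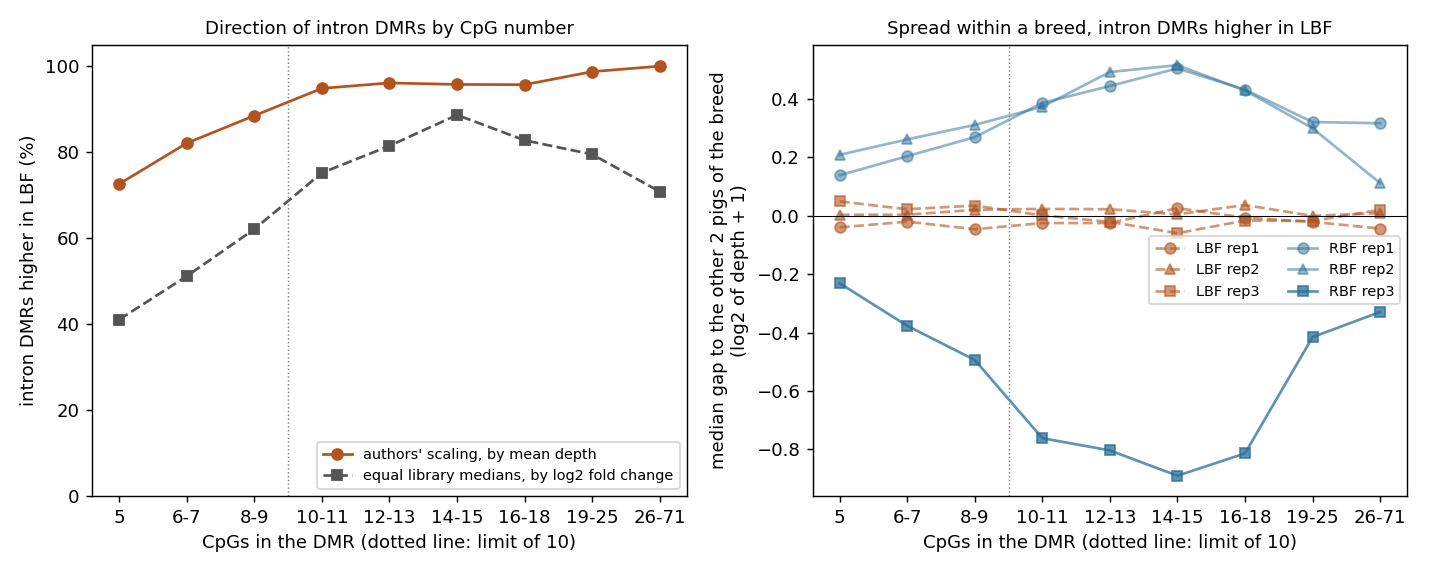
Left, the percentage of intron DMRs higher in LBF by CpG number, by mean depth on the authors' scaling (circles) and by log2 fold change with equal library medians (squares). Right, the median gap of each library to the other 2 pigs of its breed on the log2(depth + 1) scale, over the intron DMRs higher in LBF; the dotted line marks the limit of 10 CpGs. The share higher in LBF is 72.6% at 5 CpGs and 100% at 26 to 71, and RBF replicate 3 lies furthest below its breed mates at 14 to 15 CpGs.

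At these regions, where RBF was the breed with the lower depth by the rule, the Rongchang pigs differed among themselves more than the Landrace pigs did. The median coefficient of variation over the 3 pigs was 11.3% in LBF and 49.1% in RBF, whereas it was 11.3% in LBF and 36.0% in RBF over the CpG-poor intron DMRs higher in LBF. The CpG-rich intergenic DMRs higher in LBF were much alike in this, with 52.2% in RBF. Over the 40 CpG-rich intron DMRs lower in LBF it was the other way round, with 21.1% in LBF and 10.1% in RBF, so that the larger spread was in the breed with the lower depth. RBF replicate 3 was the lowest Rongchang library in 633 members (69.5%), against 66.9% of the CpG-rich intergenic DMRs higher in LBF and 54.0% of all DMRs. Its median gap to the other 2 Rongchang pigs was -0.78 on the log2 scale over the members, against -0.79 over the CpG-rich intergenic and -0.35 over the CpG-poor intron DMRs higher in LBF. Over the 40 CpG-rich ones lower in LBF the same gap was 0.08, so that this pig was not lower there. Rank correlations across members, whose n is 911 and which share libraries and regions, were between 0.921 and 0.931 for the LBF pairs and 0.816, 0.657 and 0.677 for the RBF pairs.

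Depth limits how well the RBF values are known. The depth of a DMR times its CpG number was a whole multiple of 1 fixed value per library, within a tolerance of 0.01, in 100% of DMRs, which gives the reads behind each depth. The median number of reads per CpG over the members was 37.8, 36.0 and 38.6 in LBF, against 8, 8 and 4.73 in RBF. RBF replicate 3 had under 1 read per CpG in 119 members (13.1%), and the other 2 Rongchang pigs in 50 and 55. No member was at 0 in an LBF library, whereas 81 members (8.89%) were at 0 in at least 1 RBF library (15, 25 and 51 in replicates 1 to 3) and none was at 0 in all 3. The share with a 0 in RBF was 7.26% of all DMRs and 11.3% of the CpG-rich intergenic DMRs higher in LBF. The rule made RBF the lower breed, and the lowest LBF mean of a member was 10.9, so nothing is read from this contrast of the breeds. The largest folds below rest on such low RBF values and depend on the added 1.

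The members with the largest folds had RBF depths close to 0. Those named here carry a gene symbol, and the 10 with the largest folds had LBF means of 32.5 to 141. The largest log2 fold change, 5.16 ± 0.70 (SE), was in an intron of TTC27, a tetratricopeptide repeat protein gene, at chr3:113930965-113931179, with depths of 94.6, 93.3 and 93.7 in LBF, against 6.90, 1.38 and 0 in RBF. The 3 Landrace pigs were almost level there and the Rongchang pigs differed several-fold among themselves. GRXCR2, which encodes a protein of the hair-cell stereocilia in the inner ear, held a member in its first intron with 134, 154 and 136 in LBF, against 2.41, 0 and 19.7 in RBF. RBF replicate 3 was the highest Rongchang pig at this region, in contrast to most members, and the log2 fold change was 5.10 ± 1.02 (SE).

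MICU2, a subunit that gates calcium uptake by the mitochondrial uniporter, held 3 neighboring members in internal introns. The one with the largest fold, at chr11:548421-548639 with 17 CpGs, had 109, 95.9 and 107 in LBF, against 2.15, 0.735 and 4.86 in RBF (log2 fold change 5.04 ± 0.44, SE). Its neighbors had mean depths of 29.1 ± 8.47 and 24.1 ± 5.02 in LBF, against 3.24 ± 2.49 and 1.15 ± 1.49 in RBF (SD, n = 3 each). All 3 were without overlap between the breeds, as were 100% of all DMRs, and their log2 fold changes were 2.97, 3.76 and 5.04. MICU2 also held 1 intron DMR that was lower in LBF (log2 fold change -2.06).

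LARP4, which binds the poly(A) tail of mRNA, had 84.1, 51.8 and 46.3 in LBF, against 6.09, 0 and 0 in RBF. RBF replicates 2 and 3 were at 0 there, and 1 Landrace pig stood above the other 2. PDZD8, a tether between the endoplasmic reticulum and mitochondria, had 64.3, 57.1 and 55.7 in LBF, against 2.22, 1.56 and 0 in RBF. ANKHD1, an ankyrin repeat protein, had 32.8, 28.9 and 35.7 in LBF, against 0, 0 and 1.29 in RBF, the lowest RBF mean of any member (0.430). The log2 fold changes of these 3 members were 4.96, 4.89 and 4.66.

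BLVRA, the biliverdin reductase of heme breakdown, held a pair of members less than 1 kb apart. The shorter one, of 180 bp, had 61.0, 65.4 and 48.9 in LBF, against 0, 0 and 12.8 in RBF. The longer one, of 642 bp and 35 CpGs, had 50.1, 45.5 and 35.4 in LBF, against 2.70, 0 and 8.003 in RBF. RBF replicate 3 was the highest Rongchang pig in both, and the log2 fold changes were 4.62 ± 1.01 (SE) and 3.78 ± 0.75 (SE). Members in MYCBP2 and PLEKHA1, also among the 10 with the largest folds, were both 218 bp long and are described with the regions of that length. With equal library medians, the 10 log2 fold changes were between 3.65 and 4.22.

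**Figure D3:**
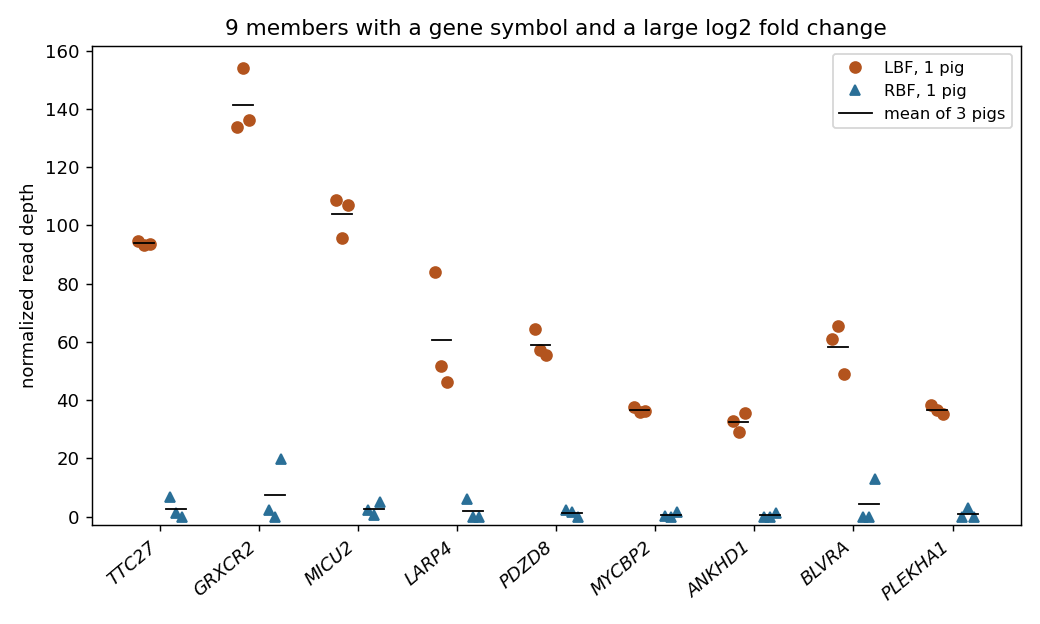
Normalized read depth in each of the 3 LBF pigs (circles) and the 3 RBF pigs (triangles) for 9 of the 10 members with a gene symbol and the largest log2 fold change, with the mean of each breed as a line. TTC27 has 94.6, 93.3 and 93.7 in LBF, against 6.90, 1.38 and 0 in RBF. At every region shown the LBF pigs lie above the RBF pigs, and 100% of all DMRs are without overlap between the breeds.

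The smallest folds belonged to regions in which RBF was above its median of 10.7 over all members. FAM196A had 188, 164 and 173 in LBF, against 121, 112 and 127 in RBF. PDK3, a kinase that inhibits pyruvate dehydrogenase, had 138, 155 and 145 in LBF, against 97.3, 104 and 109 in RBF. These regions on chromosomes 14 and X were among the 5 members with a symbol that had the highest LBF mean and among the 5 with the smallest log2 fold change at the same time. The 5 smallest log2 fold changes were 0.41 in SLC46A2, a solute carrier, 0.49 in PDK3, 0.54 in TEKT1, a tektin of cilia and flagella, 0.54 in FAM196A and 0.54 in SFI1, a centrin-binding protein. All 5 were negative with equal library medians (between -1.04 and -0.90).

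Just inside the depth rule, the member of SLC46A2 had a mean of 30.9 in LBF and 23.0 in RBF, and that of VMP1, a protein of autophagosome formation, had 11.2 in LBF and 4.42 in RBF. Just outside, CpG-rich intron DMRs of CYSTM1 and ARSG, a sulfatase, had means of 10.0 and 2.68 in LBF, against 18.1 and 11.3 in RBF. No CpG-rich intron DMR had a difference between -8.08 and 6.40, so the limit at 0 fell into a gap. Only regions that the authors had called as different were listed, so a gap around 0 was built in.

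The other members with a symbol and the highest LBF depths lay in DCUN1D4, KIT and CABLES1. DCUN1D4, which promotes neddylation of cullins, had 206, 184 and 205 in LBF, against 124, 136 and 147 in RBF (log2 fold change 0.55). CABLES1, which binds cyclin-dependent kinases, had 178, 143 and 152 in LBF, against 42.7, 43.6 and 69.4 in RBF (log2 fold change 1.62). RBF replicate 3 was the highest Rongchang pig in both, and the fold of DCUN1D4 turned negative (-0.94) with equal library medians.

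Members tended to be spread over many genes, and a few genes held several. A human gene symbol was given for 823 members in 665 genes, and 88 members had none. Of these symbols, 3 stand as dates in the table and were counted as genes without being named. Of the 665 genes, 554 held 1 member, 72 held 2, 26 held 3 and 13 held 4 or more. Members were mostly far apart, with a median gap of 840 kb on a chromosome, while 137 (15.04%) lay within 10 kb of another member. Among the genes with a member, 121 (18.2%) also held an intron DMR that was lower in LBF, and in 14 of them such a DMR was CpG-rich. The direction of a member was thus not always the direction of its gene.

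ATRX and DIAPH2, both on chromosome X, held the most members with 7 each. ATRX encodes a chromatin remodeler that deposits histone H3.3 at repeats, and its 7 members spanned 356 kb with log2 fold changes of 1.81 to 4.36. The largest was at chrX:70753698-70753874, in a first intron, with 39.5, 37.1 and 31.1 in LBF, against 1.52, 0 and 1.29 in RBF. The deepest was at chrX:70762589-70762792, with 103, 101 and 70.2 in LBF, against 14.6, 10.7 and 17.1 in RBF. They were neighbors and both were free of overlap between the breeds, as were 100% of all DMRs. A further 9 intron DMRs of ATRX with fewer CpGs were all higher in LBF. DIAPH2, a formin that nucleates actin filaments, held 7 members over 413 kb with log2 fold changes of 1.85 to 3.48. Its member with the most CpGs (24), at chrX:85992118-85992595, had 35.0, 38.5 and 37.6 in LBF, against 3.49, 0.846 and 3.76 in RBF. Its last introns held a region of 213 bp with 43.8, 40.8 and 55.7 in LBF, against 8.73, 10.1 and 0.469 in RBF, in which RBF replicate 3 was far below the other 2. With equal library medians, none of the members of ATRX or DIAPH2 turned negative.

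PARK2, the ubiquitin ligase parkin that marks damaged mitochondria, held 6 members over 826 kb. The longest, at chr1:7349896-7351266 in the first intron with 32 CpGs, had 63.2, 56.6 and 60.9 in LBF, against 24.1, 27.3 and 19.2 in RBF (log2 fold change 1.33 ± 0.21, SE). A member at chr1:8102409-8102599 had 85.3, 82.2 and 74.7 in LBF, against 17.4, 34.0 and 3.60 in RBF, and its log2 fold change of 2.51 ± 0.70 (SE) had the largest error of the 6. The other 4 had log2 fold changes of 1.54, 2.504, 1.39 and 1.11. In PARK2 4 other intron DMRs were higher and 4 were lower in LBF (the lowest log2 fold change was -3.08), and 3 of the 6 members turned negative with equal library medians.

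NDEL1, a regulator of dynein, held 5 members within 28.2 kb of chromosome 12. In the most changed of them, at chr12:56329172-56329392 on a CpG island shore, depth was 33.7, 37.0 and 31.8 in LBF, against 3.25, 1.56 and 0 in RBF. The 5 log2 fold changes were between 2.26 and 3.98, and RBF replicate 3 was the lowest Rongchang pig in all 5, at 0 in 3 of them. 1 of the 5 also lay in MYH10, a non-muscle myosin gene. MYH10 held 3 members and 4 other intron DMRs, and these 4 were all lower in LBF (the lowest log2 fold change was -3.82).

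RTN3, a reticulon that shapes the endoplasmic reticulum, held 5 members within 37.1 kb of chromosome 2. The one with 41 CpGs had 60.9, 58.0 and 57.1 in LBF, against 27.6, 23.1 and 19.6 in RBF. Also annotated to a first intron, the region at chr2:7701735-7701946 had 32.3, 30.1 and 25.3 in LBF, against 2.60, 0.827 and 5.62 in RBF. The log2 fold change was 1.30 ± 0.20 (SE) for the first and 3.10 ± 0.46 (SE) for the second region. Members annotated to a first intron of the same gene thus differed in fold. A member that RTN3 shared with PLA2G16, a phospholipase of adipose tissue, had a log2 fold change of 3.23 ± 0.29 (SE), with 39.0, 46.7 and 45.4 in LBF, against 3.71, 2.38 and 5.72 in RBF. With equal library medians, 2 of the 5 turned negative.

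ARHGAP26, a GTPase-activating protein, held 5 members over 252 kb of chromosome 2 with log2 fold changes of 1.40 to 2.96. Its largest, with 18 CpGs, had 63.1, 78.0 and 68.9 in LBF, against 6.86, 16.3 and 4.52 in RBF. It also held 11 other intron DMRs higher and 5 lower in LBF, and 1 member turned negative with equal library medians.

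KIT encodes the receptor of stem cell factor in melanocytes and mast cells, and duplication of this gene is known to belong to the dominant white coat of breeds such as Landrace. It held 5 members within 47.8 kb of chromosome 8. The deepest, at chr8:43567308-43567821, had 162, 189 and 179 in LBF, against 26.5, 27.4 and 14.5 in RBF (log2 fold change 2.95 ± 0.29, SE). In the first intron, chr8:43552504-43552798 had 66.0, 70.6 and 69.5 in LBF, against 9.75, 4.06 and 14.97 in RBF (log2 fold change 2.87 ± 0.42, SE). The other 3 had log2 fold changes of 2.211, 1.59 and 1.71. All 4 other intron DMRs of KIT were higher in LBF too, with log2 fold changes of 1.85 or more, and no member of KIT turned negative with equal library medians.

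AGPAT4, an acyltransferase that makes phosphatidic acid on the way to glycerolipids, held 4 members within 30.6 kb of chromosome 1. The one with most CpGs (28), at chr1:8337309-8337781, had 28.3, 33.3 and 43.1 in LBF, against 5.11, 0.781 and 2.54 in RBF. Its log2 fold change was 3.39 ± 0.46 (SE), and the other 3 were 2.75, 2.34 and 2.19. All 10 intron DMRs of AGPAT4, with many or few CpGs, were higher in LBF. SNX24, a sorting nexin of membrane traffic, held 4 members with log2 fold changes of 1.92 to 4.24, of which 2 were 218 bp long. SPATA7, a protein of the photoreceptor cilium, held 4 members with log2 fold changes of 0.98 to 2.18, the lowest of which turned negative with equal library medians. LIMCH1, SRGAP2 and REPS2 held 4 members as well, with log2 fold changes of 0.94 to 3.80, and came after these genes only by the order of the table.

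**Figure D4:**
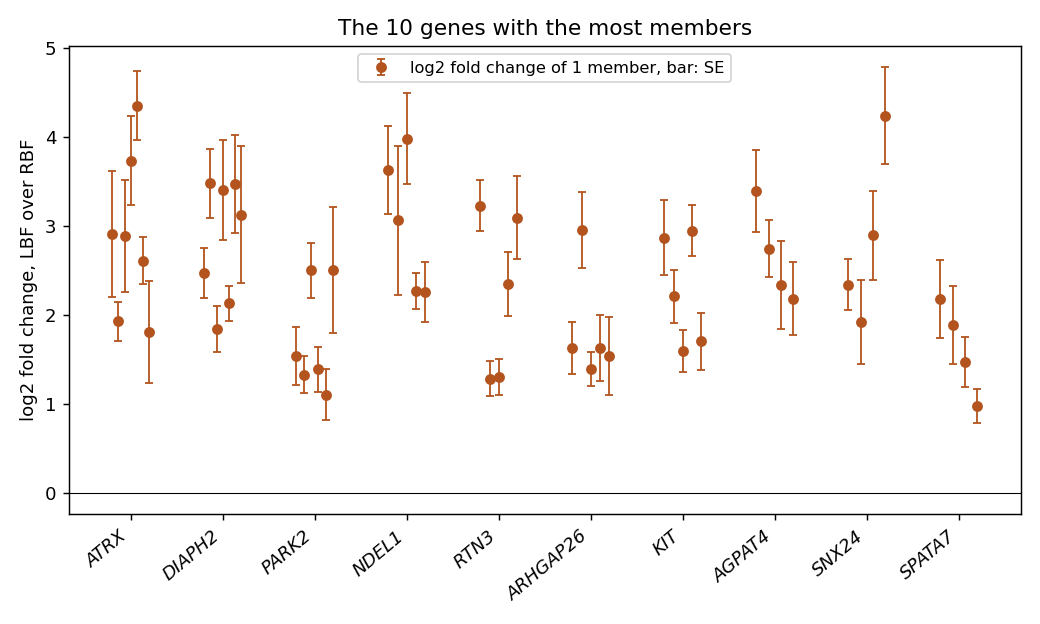
Log2 fold change of LBF over RBF on the log2(depth + 1) scale for each member of 10 genes with 4 to 7 members; LIMCH1, SRGAP2 and REPS2 also held 4 and are not shown. Each point is 1 DMR in order of its position, and bars are standard errors from limma (3 pigs per breed). All points lie above 0, from 0.98 in SPATA7 to 4.36 in ATRX.

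The lengths of the members were not spread evenly, and a single length stood out. The members were 90 to 1507 bp long with a median of 218 bp, and 218 bp was at the same time the commonest length, with 48 members (5.27%, 95% exact binomial interval 3.91 to 6.93, for counting error only). The next lengths were 137 bp with 21 members, 212 bp with 18, 171 bp with 17, 210 bp with 16 and 215 bp with 14. Among the CpG-rich intergenic DMRs higher in LBF, 123 of 2361 (5.21%) were exactly 218 bp long, so that this length was about as common outside genes. It made up 8 of 2419 (0.331%) CpG-poor intron DMRs higher in LBF, 1.51% of all DMRs, and 0 of the 40 CpG-rich intron DMRs lower in LBF, which allows a share of up to 8.81%. Within 3 bp of this length lay 9.33% of the members and 10.8% of the CpG-rich intergenic DMRs higher in LBF. The share was 1.32% of the CpG-poor intron DMRs higher in LBF, which were shorter, and 3.79% of all DMRs.

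**Figure D5:**
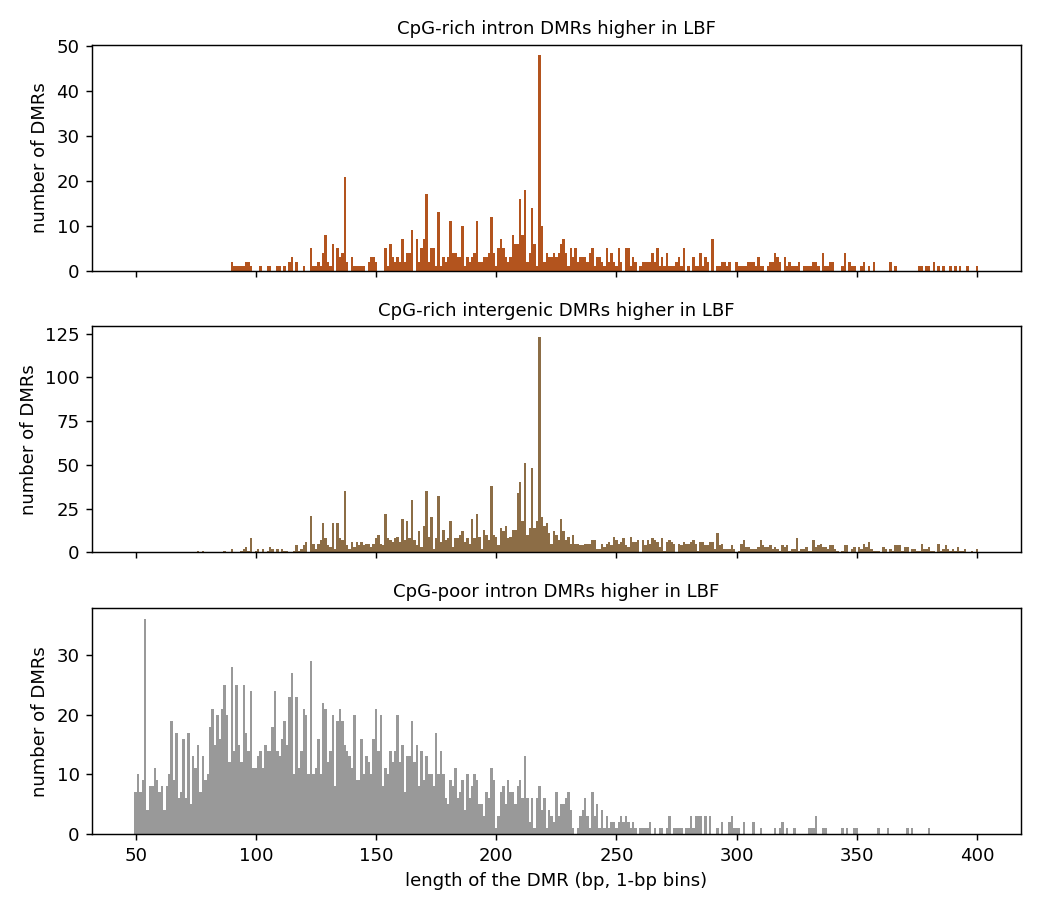
Number of DMRs of each length in bins of 1 bp, for CpG-rich intron DMRs higher in LBF (top), CpG-rich intergenic DMRs higher in LBF (middle) and CpG-poor intron DMRs higher in LBF (bottom). Lengths up to 400 bp are shown. The peak at 218 bp holds 48 members and 123 intergenic DMRs, and the bottom panel has 8 DMRs there.

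The 48 members of 218 bp were alike in CpG number as well as in length. They lay on 16 chromosomes and in 40 genes with a symbol, and 7 had no symbol. They held 10 to 20 CpGs with a median of 15.5, and 36 of them (75%) held 14 to 18 CpGs, whereas 24.3% of the members of other lengths did. Their median density was 7.11 CpGs per 100 bp, against 5.64 in the members of other lengths. None lay on a CpG island shore, and 12 lay in a first intron. No sequence was read, and whether these regions share sequence with each other was not tested. Reads that matched several places had been kept by the authors as 1 read, and the part of such reads in these values was not tested.

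In depth, the regions of 218 bp were lower in RBF and slightly lower in LBF than the other members. Their median mean depth was 40.8 in LBF and 6.06 in RBF, and that of the members of other lengths was 45.6 in LBF and 10.9 in RBF. Their median log2 fold change was 2.53, against 2.08. Among the members with 14 to 18 CpGs alone, the 36 of 218 bp had a median of 2.71 and the 210 of other lengths had 2.31. These values belong to the contrast by which the members were chosen, and the difference was not tested.

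The largest log2 fold change among the regions of 218 bp was 4.91, in a member with no symbol. The next lay in MYCBP2, a large ubiquitin ligase of axons, and in PLEKHA1, which binds phosphoinositides. MYCBP2, at chr11:53930895-53931112, had 37.7, 36.0 and 36.2 in LBF, against 0.218, 0 and 1.66 in RBF. PLEKHA1, at chr14:143431238-143431455, had 38.3, 36.7 and 35.1 in LBF, against 0, 3.12 and 0 in RBF. Both were level among the Landrace pigs and near 0 in the Rongchang pigs, with log2 fold changes of 4.67 ± 0.38 (SE) and 4.55 ± 0.56 (SE). In SNX24 the region at chr2:131630567-131630784 had 39.3, 44.7 and 46.8 in LBF, against 1.79, 3.68 and 0 in RBF, and that at chr2:131595688-131595905 had 35.2, 25.4 and 37.7 in LBF, against 6.20, 1.04 and 5.08 in RBF. They lay in internal introns of the same gene, and their log2 fold changes were 4.24 and 2.90.

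The 10 regions of 218 bp with a symbol and the most CpGs (17 to 20, with the tie at 17 broken by the order of the table) covered a wide span of folds. LIMCH1, an activator of non-muscle myosin, had 20.8, 17.7 and 24.7 in LBF, against 0.931, 0 and 1.15 in RBF (log2 fold change 3.77 ± 0.34, SE). GOLM1, a Golgi membrane protein, had 20.6, 20.9 and 19.3 in LBF, against 8.72, 9.20 and 4.66 in RBF (log2 fold change 1.37 ± 0.28, SE). These were the largest and the smallest of the 10, while SNX24, one of the regions with 17 CpGs that the tie left out, was above both. Between them were FGF14 (2.86), EPB41L2 (2.77), NVL (2.65), KCNQ5 (2.52), IFNGR1 (2.38), AMOT (2.26), GLDN (2.05) and KIAA1045 (1.63). KIAA1045 had the most CpGs (20), with 24.2, 27.8 and 19.3 in LBF, against 8.23, 7.58 and 5.36 in RBF, and GOLM1 was at -0.01 with equal library medians.

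Members with many CpGs were long and had folds of very different size. The 10 with a symbol and the most CpGs held 33 to 54 CpGs, were 642 to 1507 bp long, and had log2 fold changes of 0.54 in TEKT1 to 3.78 in BLVRA. LTBP2, a matrix protein of the family that binds latent TGF-beta, held the most, with 54 CpGs over 1391 bp at chr7:103608877-103610267. Its depth was 47.3, 46.9 and 42.4 in LBF, against 11.3, 15.2 and 6.36 in RBF, close to the median of all members. C11orf49 held 52 CpGs over 1507 bp, with 28.8, 35.0 and 38.8 in LBF, against 3.57, 6.40 and 3.70 in RBF. ASXL2, a chromatin protein that works with the deubiquitinase BAP1, held 44 CpGs, with 65.9, 58.7 and 58.1 in LBF, against 19.2, 25.1 and 8.86 in RBF. RBF replicate 3 was lowest in LTBP2 and ASXL2, and not in C11orf49. RCAN2, an inhibitor of calcineurin, and PHACTR1, a regulator of actin, had log2 fold changes of 2.08 and 1.55, and ASGR2, a subunit of the asialoglycoprotein receptor, had 2.13. Over all 911 members, the rank correlation of the log2 fold change was 0.14 with CpG number, 0.31 with CpG density and -0.13 with length, as a description across regions that share libraries.

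Within genes, most members lay in internal introns. By all of their annotated transcripts, 594 members (65.2%) lay in an internal intron, 216 (23.7%, interval 21.0 to 26.6) lay in a first intron of at least 1 transcript, and 104 (11.4%) in a last one. First introns held 25.5% of the CpG-poor intron DMRs higher in LBF and 4 of the 40 CpG-rich intron DMRs lower in LBF (10%, interval 2.79 to 23.7). The interval of the members overlapped with that of the DMRs lower in LBF and included the share of the CpG-poor DMRs. Chromosome X held 88 members (9.66%), close to the 9.16% of all DMRs. It held 7.69% of the CpG-poor intron DMRs and 14.9% of the CpG-rich intergenic DMRs higher in LBF, and all 6 pigs were female.

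CpG island shores, the flanks of CpG islands, held 43 members (4.72%), against 5.42% of the CpG-poor intron DMRs higher in LBF. 5 of the shore members had an LBF mean of 100 or more. The deepest was in RAPGEF1, which activates the GTPase Rap1, with 131, 131 and 152 in LBF, against 74.0, 82.6 and 56.4 in RBF. EXOC2, a subunit of the exocyst, had 116, 100 and 107 in LBF, against 35.5, 47.6 and 5.40 in RBF. The Rongchang pigs were near each other in RAPGEF1, whereas RBF replicate 3 stood far below the others in EXOC2. GAL3ST3, a sulfotransferase, WDFY3, an autophagy scaffold, and REPS2, an endocytosis protein, had log2 fold changes of 1.996, 1.72 and 1.90. Only RAPGEF1, of these 5, turned negative with equal library medians (-0.52). CpG islands themselves held 5 members (0.549%), in PCDHA1, MAD1L1, DCUN1D4, UVRAG and PRKX, which were named after their values were seen.

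Genes of lipid synthesis held a few members. The list of fatty acid and glycerolipid synthesis had 42 genes, of which 11 held 24 intron DMRs (19 higher and 5 lower in LBF, all past limma beside a background of 99.5%, while 3330 of all 3964 intron DMRs or 84.0% were higher), and 8 of the 24 were members in 5 genes. Their median log2 fold change was 2.26, against 2.10 over all members. Besides the 4 in AGPAT4, ACSS2, which makes acetyl-CoA from acetate, had 51.7, 54.0 and 64.8 in LBF, against 21.5, 13.5 and 1.29 in RBF. ACSL5, a long-chain acyl-CoA synthetase, had 39.7, 47.8 and 40.8 in LBF, against 9.14, 16.2 and 9.33 in RBF. The Rongchang values of ACSS2 were far apart and those of ACSL5 less so. LPIN1, the phosphatidate phosphatase that yields diacylglycerol, had 13.6, 14.2 and 16.2 in LBF, against 4.57, 5.82 and 0.939 in RBF. MLXIPL, the transcription factor ChREBP that turns on lipogenic genes with glucose, had 21.3, 25.9 and 21.1 in LBF, against 8.03, 8.66 and 12.3 in RBF. Log2 fold changes were 2.67 ± 0.82 (SE), 1.84 ± 0.27 (SE), 1.90 ± 0.48 (SE) and 1.17 ± 0.23 (SE) for these 4 genes in this order, and that of MLXIPL was -0.23 with equal library medians.

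The list of lipid droplet and lipolysis genes held no member. Of its 28 genes, 2 held 3 intron DMRs, all 3 higher in LBF and with fewer than 10 CpGs. This holds for the list alone, as PLA2G16, the phospholipase named above, is not on it and held a member. The list of fatty acid oxidation and mitochondria had 33 genes with 9 intron DMRs (7 higher and 2 lower beside 84.0% higher over all intron DMRs, all past limma beside 99.5%), of which 4 were members with a median log2 fold change of 3.36. Besides the 3 in MICU2, CPT2, the carnitine palmitoyltransferase of the inner mitochondrial membrane, had 51.1, 61.0 and 62.5 in LBF, against 10.0, 13.4 and 11.7 in RBF (log2 fold change 2.22 ± 0.21, SE). The Rongchang pigs were near each other in CPT2. The list does not cover all mitochondrial genes, as NDUFS1 and NDUFA6, which are not on it, held 2 members each.

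Among 47 regulators of adipogenesis, 13 held 25 intron DMRs (18 higher and 7 lower in LBF beside 84.0% higher over all intron DMRs, all past limma beside 99.5%), of which 4 were members with a median log2 fold change of 1.83. NCOR1, a corepressor of nuclear receptors that include PPARG, had 50.4, 41.2 and 43.9 in LBF, against 9.21, 11.5 and 4.06 in RBF. EBF2, a transcription factor of brown and beige fat cells, held one of the longest members (1498 bp), with 25.3, 22.5 and 19.7 in LBF, against 10.5, 12.6 and 11.7 in RBF. ESRRB, an estrogen-related nuclear receptor, held a member of 677 bp in its first intron and one of 183 bp in an internal intron, with log2 fold changes of 1.75 and 1.92. The log2 fold change was 2.41 ± 0.36 (SE) in NCOR1 and 0.90 ± 0.20 (SE) in EBF2, and that of EBF2 was -0.51 with equal library medians.

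Insulin and growth factor signaling had 42 genes, of which 13 held 26 intron DMRs (25 higher and 1 lower beside 84.0% higher over all intron DMRs, all past limma beside 99.5%), and 8 were members, 5 of them in KIT, with a median log2 fold change of 2.54. RICTOR, the defining subunit of mTORC2, had 31.9, 40.5 and 40.4 in LBF, against 0.381, 5.73 and 2.26 in RBF. PDGFRB, a platelet-derived growth factor receptor of stromal cells, had 43.7, 57.7 and 40.9 in LBF, against 6.74, 6.82 and 0.136 in RBF. A Rongchang pig was close to 0 in each, replicate 1 in RICTOR and replicate 3 in PDGFRB. GRB10, an adaptor that restrains the insulin receptor, had 88.6, 88.8 and 67.3 in LBF, against 36.3, 30.6 and 26.8 in RBF. Log2 fold changes were 3.62 ± 0.55 (SE) in RICTOR, 3.55 ± 0.76 (SE) in PDGFRB and 1.36 ± 0.22 (SE) in GRB10, and that of GRB10 was -0.11 with equal library medians.

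The list of chromatin and DNA methylation genes held 3 members among 77 genes and 16 intron DMRs (13 higher and 3 lower, beside 84.0% higher over all intron DMRs). HDAC8, a histone deacetylase on chromosome X, had 42.8, 50.5 and 42.5 in LBF, against 1.20, 3.12 and 0 in RBF (log2 fold change 4.47 ± 0.50, SE). KDM6B, a demethylase of H3K27, and JARID2, a subunit of the PRC2 complex, had log2 fold changes of 3.17 and 2.45.

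Neuronal and matrix genes held members as well. Synaptic and neuronal adhesion held 5 members, led by DSCAML1 (3.001), TENM1 (2.27) and CSMD2 (2.02). Axon guidance held 3, in SLIT2 (3.15), SLIT3 (2.85) and SEMA4D (1.87). SLIT2 and SLIT3 encode repellents that bind ROBO receptors, and SLIT3 had 57.6, 54.3 and 55.8 in LBF, against 5.64, 11.6 and 4.84 in RBF. Glutamate and GABA receptors held 4, among them GRIA4 (2.22) and GABBR1 (1.42). Calcium and potassium channels held 3, among them KCNQ5 and CACNA1I (2.42). The list of 38 cadherins and protocadherins held 1, in PCDH19 (2.54), and PCDHA1 (2.82) and DCHS2 (2.51), which belong to the family and not to that list, held members too. The extracellular matrix list held 7, led by COL27A1 (2.83), ADAMTS20 (2.30) and LAMA3 (2.08). Of the intron DMRs of these lists, those higher in LBF were 27 of 32 in synaptic and neuronal adhesion, 17 of 22 in axon guidance, 10 of 13 in glutamate and GABA receptors, 16 of 19 in the channels, 15 of 18 in cadherins and 30 of 37 in the matrix list, beside 84.0% of all intron DMRs, and all of them passed limma beside 99.5% of all DMRs. The median log2 fold change of the members was 2.02 in synaptic and neuronal adhesion, 2.85 in axon guidance, 1.82 in the receptors, 2.42 in the channels and 1.97 in the matrix list. All values in parentheses are log2 fold changes, and of the genes just named GABBR1 was negative with equal library medians.

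Of the 5 lists of cell type markers, 2 held a member. The 8 adipocyte markers held no intron DMR, and the 8 endothelial and 8 muscle markers held no member and 6 and 1 intron DMRs. Among 9 immune cell markers, CD3E, a chain of the T cell receptor complex, held 1 member, with 52.4, 62.3 and 66.0 in LBF, against 13.1, 7.03 and 2.71 in RBF. Among 8 stromal and preadipocyte markers, PDGFRB held 1 member. The part of cell composition in the breed differences was not tested.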

How the data were processed

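MeDIP-seq of backfat from 3 LBF and 3 RBF pigs was taken from the authors' table of DMRs. The authors aligned reads with SOAP2 to the pig genome (Sscrofa10.2 in the submitters' processing notes), allowing up to 4 mismatches and counting a read that matched several places as 1 read, dropped CpGs covered by fewer than 10 reads, and joined CpGs into DMRs of at least 5 CpGs. The deposited signal is the coverage of a DMR in each library, scaled by the authors. For chromosome profiles they describe a scaling to the average number of reads per group, and the sources used here do not say whether the DMR depths were scaled likewise. Their deposited P, FDR and breed mean columns hold their own comparison and were not used. Of the 15883 lines of the table, those of a single DMR were joined, which left 14163 DMRs. Samples were grouped by their labels. Coordinates are those of the table, and gene symbols are its human homologues.

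Fold changes and standard errors are those of a limma fit (3.58.1, in R 4.3.3) of log2(depth + 1) on breed alone, with Benjamini-Hochberg adjustment over all 14163 DMRs. Shares have exact 95% binomial intervals (python 3.11.15 with pandas 2.3.3 and numpy 2.4.6, and scipy 1.17.1). With 3 pigs per breed an exact two-sided permutation test cannot give a p below 0.1, so none was used. Alternatives were equal library medians, pseudocounts of 0.5 and 5, depth without logarithm, a minimum mean depth of 10, leaving out each replicate, a replicate block, minimums of 8 and 12 CpGs, autosomes, 1 member per gene and stricter annotation.

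The members, the 18 gene lists (5 of them cell type markers) and the alternatives were chosen with earlier results of these data known. Named are the members with a symbol that had the 10 largest and 5 smallest log2 fold changes, the 10 with the most CpGs, the 5 highest LBF means, the 10 genes with the most members (ties by the order of the table), the 10 of 218 bp with the most CpGs, shore members with an LBF mean of at least 100, members of the lipid, mitochondrial, adipogenesis and insulin lists, the top 3 of each other list and regions at the edges of the rule. Sequences, motifs and copy number were not analysed here, and a few named members and 1 list are not reported here.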

Additional observations from a re-analysis of the deposited data

How the results depend on the processing

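Across 8 results, 61 alternatives gave 54 values that were close to the reported ones and 7 that moved. A reversal could be recorded only for the median log2 fold change of members, which did not reverse. Single members did, as 153 turned negative with equal library medians. Several of the results use the contrast that chose the members, so their closeness is no separate evidence. Equal library medians moved the most: 3947 of all DMRs and 185 members then passed limma, and the median log2 fold change of members was 0.69. This scaling lowers LBF against RBF by construction, and whether it or the authors' scaling is nearer to the methylation was not tested. With a limit of 8 CpGs there were 1518 members, and with 12 CpGs there were 544. The share of members of 218 bp was 7.54% with at least 12 CpGs and 9.33% within 3 bp of that length. With each replicate left out, 13603 to 14102 of all DMRs and 879 to 910 members passed limma. The median log2 fold change of members then lay between 1.75 (without RBF replicate 3) and 2.26. The number of members stayed at 911, as it had to, because no DMR overlapped between the breeds. With the replicate number as a block, 13848 of all DMRs and 903 members passed and the median stayed at 2.10. Deviations of same-numbered pigs from their breed means correlated at 0.06, -0.01 and 0.06, and those of differently numbered pigs at -0.08 to 0.03. With so few pigs, these values cannot tell whether the numbers pair them. The paper names paired t-tests for several of its comparisons and does not say how pigs were paired. LBF replicates 1 and 3 correlated best with their own number, and LBF replicate 2 with RBF replicate 3 (0.02). The low RBF depth, 4.73 to 8 reads per CpG at the median member, limits the folds.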
